A study of Mus musculus with 19 samples.

Results

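The genes described here are 10 CC chemokines, *Ccl2*, *Ccl7*, *Ccl12*, *Ccl3*, *Ccl4*, *Ccl5*, *Ccl6*, *Ccl9*, *Ccl22* and *Ccl24*. They were taken by symbol, through the GENCODE mouse annotation, from the 56980 Ensembl genes of a raw RNA-sequencing count table, and all 10 passed the low-count filter that left 18739 genes for testing. The table held 19 libraries of CD11b+ cells, sorted with magnetic beads from the perfused brains of male mice of 3 to 4 months without olfactory bulb and cerebellum. *PARK7*/DJ-1 KO mice, which carry the gene trap allele *Park7* Gt(XE726)Byg, and their wildtype littermates came from heterozygous breeding on a C57BL/6NCrl background. Mice received LPS, a bacterial lipopolysaccharide from *E. coli* O55:B5, intraperitoneally at 4 μg per g of body weight, or PBS (saline) as vehicle, and were sampled after 6 h. There were 5 KO and 5 wildtype mice with LPS and 5 KO and 4 wildtype mice with PBS. The trap sits in the germ line and so in every tissue of the KO mice, not in myeloid cells alone, and CD11b is carried by other myeloid cells besides microglia, the cell type that the labels name.

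Total counts ranged from 11936364 to 22788884 per library, so that 3 counts corresponded to 0.139 to 0.256 CPM (a gene's counts scaled to the size of its library), a limit that covers counting error only. *Park7* itself had 9 to 90 counts in the 10 KO libraries and 262 to 533 in the 9 wildtype libraries, with no overlap. The labelled cell type was checked by its markers. The summed CPM of the 9 microglial markers in the table (1 of the 10 listed was not found by its symbol) was 25267 to 40571 after PBS and 10565 to 17005 after LPS, and all 9 were lower after LPS in both genotypes. Of 8 monocyte markers 7 were higher after LPS in both genotypes, with summed CPM of 144 to 201 after PBS, 451 to 732 in wildtype and 286 to 720 in KO mice after LPS. Of 9 neutrophil markers 5 (wildtype) or 6 (KO) were higher, and of 8 markers of border-associated macrophages 6 were lower in both genotypes. Higher and lower in these counts mean an adjusted p under 0.05 and |log2FC| of at least 0.5 (edgeR). That rule called 18.4% (wildtype) and 20.1% (KO) of all tested genes higher, and 17.4% and 19% lower. The log2FC was above 0 for 9 (wildtype) and 8 (KO) neutrophil markers, and below 0 for all 8 macrophage markers. Summed neutrophil CPM overlapped between PBS and LPS in KO mice (27.9 to 201 and 112 to 474) but not in wildtype mice. No listed marker of any of these types was at 0 throughout. The part of these shifts in the chemokine results was not tested, and in bulk RNA fewer cells of a type and less RNA per cell cannot be told apart.

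CC chemokines are small secreted proteins with a pair of adjacent cysteines near the N-terminus, and they draw leukocytes along a gradient by binding G protein-coupled receptors of the Ccr family. LPS is bound by Cd14 and the Tlr4 and Ly96 complex, whose adaptors Myd88 and Ticam1 lead to NF-kappaB and interferon regulatory factors, and many chemokine genes are known targets of these factors in myeloid cells. *Ccl2*, *Ccl7* and the rodent gene *Ccl12* encode ligands of Ccr2, the receptor that leads monocytes out of marrow and blood. *Ccl3*, *Ccl4* and *Ccl5* encode ligands that attract monocytes, macrophages and T cells, *Ccl9* and *Ccl6* encode rodent ligands of Ccr1, *Ccl22* encodes a ligand of the T cell receptor Ccr4, and *Ccl24* encodes an eotaxin that binds Ccr3 on eosinophils.

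Of the 10 genes, 8 lie on chromosome 11 (GRCm39) in 2 stretches 1422 kb apart. *Ccl2* (chr11:81926397-81928279), *Ccl7* (chr11:81936532-81938351) and *Ccl12* (chr11:81992645-81994466) lie on the plus strand within 68.1 kb, together with *Ccl11*, the only other protein-coding gene there. *Ccl5* (chr11:83416602-83425942), *Ccl9* (chr11:83463745-83473161), *Ccl6* (chr11:83478708-83483913) and *Ccl3* (chr11:83538670-83540191), on the minus strand, and *Ccl4* (chr11:83553383-83555509), on the plus strand, are the 5 protein-coding genes of a stretch of 138.9 kb. *Ccl22* (chr8:95471226-95478327, plus strand) and *Ccl24* (chr5:135598668-135601905, minus strand) lie apart from both stretches. Each gene has 3 exons in its canonical transcript, except *Ccl6* and *Ccl9* with 4. Long non-coding RNAs on the opposite strand overlap 4 of the genes, and whether the counting used strand is not given in the sources used here. *Gm53692*, which overlaps *Ccl3*, had 40 to 168 counts against 2171 to 19473 for *Ccl3*, *E230016K23Rik*, which overlaps *Ccl6* and *Ccl9*, had 0 to 12 counts, and *Gm73713*, which overlaps *Ccl5*, was not analysed here.

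Promoters are shown for the genes with the largest rises after LPS, *Ccl5* and *Ccl22*, and for the neighbours *Ccl9* and *Ccl6*, which lie 5547 bp apart and changed in opposite directions. Each is the 250 bases before the canonical GENCODE start, read 5′ to 3′ on the gene's own strand from the GRCm39 genome, at chr11:83421346-83421595 (minus), chr8:95471968-95472217 (plus), chr11:83469468-83469717 (minus) and chr11:83483914-83484163 (minus). The canonical starts of *Ccl5*, *Ccl9* and *Ccl22* lie inside the gene spans given above, since other transcripts of these genes start further upstream. Capitals mark matches to the NF-kappaB consensus on either strand.
Ccl5: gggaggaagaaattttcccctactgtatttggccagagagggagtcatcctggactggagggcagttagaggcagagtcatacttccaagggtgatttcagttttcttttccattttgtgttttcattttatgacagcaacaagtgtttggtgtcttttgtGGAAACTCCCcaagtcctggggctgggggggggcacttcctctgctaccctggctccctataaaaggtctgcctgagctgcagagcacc
Ccl22: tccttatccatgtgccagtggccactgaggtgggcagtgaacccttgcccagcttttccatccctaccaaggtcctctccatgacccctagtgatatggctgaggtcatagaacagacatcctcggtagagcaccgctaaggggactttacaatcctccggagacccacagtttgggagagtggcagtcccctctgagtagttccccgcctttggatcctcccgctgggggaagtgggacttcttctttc
Ccl9: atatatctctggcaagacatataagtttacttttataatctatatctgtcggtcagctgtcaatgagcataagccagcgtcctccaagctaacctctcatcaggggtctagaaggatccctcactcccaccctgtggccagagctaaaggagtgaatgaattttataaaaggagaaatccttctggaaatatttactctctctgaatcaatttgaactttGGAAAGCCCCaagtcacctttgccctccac
Ccl6: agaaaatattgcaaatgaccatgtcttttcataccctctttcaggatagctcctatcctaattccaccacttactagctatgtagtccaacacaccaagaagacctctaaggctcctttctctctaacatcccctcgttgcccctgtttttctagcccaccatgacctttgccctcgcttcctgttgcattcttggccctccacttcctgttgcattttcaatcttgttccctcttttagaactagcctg
The consensus occurred at 89 to 80 bases before the start of *Ccl5* (GGAAACTCCC) and at 30 to 21 bases before the start of *Ccl9* (GGAAAGCCCC), both on the opposite strand, and was not found in the other 8 windows. These windows depend on the start chosen: the RefSeq promoter table held 5 of the 10 genes and had the same start for 1, *Ccl6*, and for *Ccl22* the middle of the window shown was not within the RefSeq promoter. Among 21770 promoters of protein-coding genes cut in the same way, 7.62% held it. TATAAA, on either strand, occurred in 4 of the 10 (*Ccl7*, *Ccl5*, *Ccl9* and *Ccl24*) and in 11.9% of all, and GAAA followed by any 2 bases and GAAA again, part of the interferon response motif, in 0 of the 10 and in 3.32% of all. The matches describe letters in these windows, and their absence says nothing about binding of a factor.

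To ask how the CC chemokines responded to systemic LPS, LPS was compared with PBS within each genotype. After 6 h, 8 of the 10 genes rose and 2, *Ccl6* and *Ccl24*, fell in wildtype mice, and the same 8 rose and the same 2 fell in KO mice (edgeR quasi-likelihood test, adjusted p under 0.05 and |log2FC| of at least 0.5). The same rule called 18.4% of all tested genes higher and 17.4% lower in wildtype mice, and 20.1% higher and 19% lower in KO mice. The median log2FC of the 10 genes was 2.50 in wildtype and 2.52 in KO mice, against -0.063 and -0.0100 over all tested genes. Wildtype LPS and PBS mice did not overlap in any of the 10 genes (20.8% of all genes did not overlap in the higher and 17.0% in the lower direction), and KO mice did not overlap in 9 of 10 (16.2% and 16.6%).

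**Figure D1:**
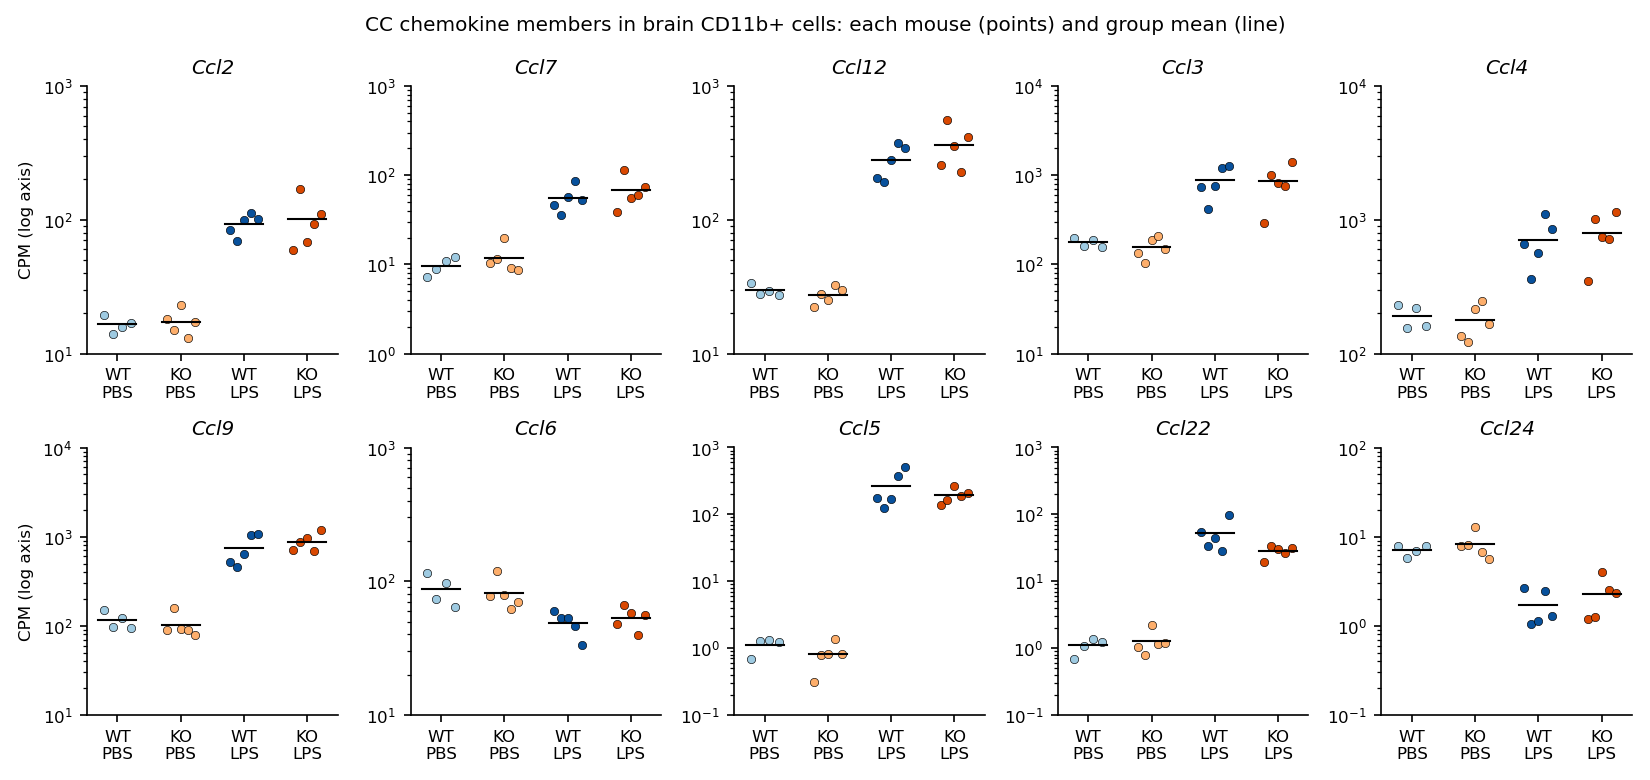
CPM (log axis) of each CC chemokine in each mouse, by genotype and treatment; points are mice and lines are group means (n = 4 wildtype PBS, 5 in the other groups). LPS groups lie above PBS groups for 8 genes and below for *Ccl24*, and *Ccl6* falls least, with KO groups that overlap.

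All 3 Ccr2 ligands rose in both genotypes. *Ccl2* stood at 19.4, 14.1, 15.8 and 17.0 CPM in the 4 wildtype mice given PBS and at 18.1, 15.1, 23.1, 13.1 and 17.3 CPM in the 5 KO mice given PBS. After LPS it stood at 83.2, 69.8, 99.6, 113 and 100.5 CPM in the 5 wildtype mice and 59.0, 171, 68.6, 93.4 and 111 CPM in the 5 KO mice. Every mouse given LPS was above every mouse given PBS, and the KO mice after LPS held both the lowest and the highest value. The log2FC of *Ccl2* was 2.49 ± 0.26 in wildtype mice (SE, adjusted p = 4.49e-07) and 2.54 ± 0.24 in KO mice (adjusted p = 9.51e-08), a rise of 5.62-fold and 5.80-fold. *Ccl7*, its neighbour on the chromosome, ranged from 7.14 to 12.1 CPM in wildtype and 8.64 to 20.0 CPM in KO mice after PBS, and from 36.1 to 86.3 and 38.5 to 114 CPM after LPS. Its log2FC was 2.51 ± 0.33 in wildtype mice (SE, adjusted p = 5.22e-06) and 2.51 ± 0.30 in KO mice (adjusted p = 1.41e-06), close to that of *Ccl2*. *Ccl12* stood at 33.8, 27.9, 29.4 and 27.4 CPM in the 4 wildtype mice given PBS and at 22.4, 27.9, 25.2, 32.5 and 29.6 CPM in the 5 KO mice given PBS. The PBS groups overlapped in part, with KO mice 1 and 3 below every wildtype mouse and wildtype mouse 1 above every KO mouse. After LPS *Ccl12* stood at 205, 193, 277, 373 and 344 CPM in the 5 wildtype mice and 259, 560.2, 359, 226 and 416 CPM in the 5 KO mice. Its log2FC was 3.23 ± 0.26 in wildtype mice (SE, adjusted p = 1.91e-08) and 3.72 ± 0.24 in KO mice (adjusted p = 1.09e-09), the largest of the 3 Ccr2 ligands in both genotypes. The count ratio of *Ccl12* to *Ccl2* within a library went from 1.62 to 1.98 to 2.47 to 3.42 in wildtype mice without overlap, and from 1.09 to 2.48 to 2.42 to 5.23 in KO mice with overlap.

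*Ccl3* and *Ccl4* were well detected before LPS and rose 4.94-fold and 3.70-fold in wildtype mice. *Ccl3* stood at 196, 162, 189.9 and 158 CPM in the 4 wildtype mice given PBS and at 133, 103, 186, 209 and 147 CPM in the 5 KO mice given PBS. After LPS it stood at 737, 412, 748, 1189.7 and 1271 CPM in the 5 wildtype mice and 289.9, 1008, 814, 751 and 1406 CPM in the 5 KO mice. The LPS values spread widely. KO mouse 1 was the closest to the PBS range and below every wildtype LPS mouse, and KO mouse 5 was the highest of all. The log2FC of *Ccl3* was 2.30 ± 0.37 in wildtype mice (SE, adjusted p = 5.47e-05) and 2.45 ± 0.34 in KO mice (adjusted p = 9.3e-06). *Ccl4* ranged from 155 to 233 CPM in wildtype and 121 to 247 CPM in KO mice after PBS, and from 361 to 1103 and 350.3 to 1143 CPM after LPS. Its log2FC was 1.89 ± 0.34 in wildtype mice (SE, adjusted p = 0.000158) and 2.16 ± 0.31 in KO mice (adjusted p = 1.38e-05), the smallest of the 8 rises in both genotypes. KO mouse 1 and wildtype mouse 2 had the lowest *Ccl3* and *Ccl4* of their LPS groups and the highest summed oligodendrocyte markers (11132 and 6567 CPM), and the part of the one in the other was not tested. Without the 4 libraries with the most oligodendrocyte marker counts, 1 of each group, both genes rose in both genotypes.

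*Ccl5*, whose product also binds Ccr1 and Ccr3 and attracts T cells, had the largest rise of the 10 genes. *Ccl5* stood at 0.678, 1.27, 1.31 and 1.24 CPM in the 4 wildtype mice given PBS and at 0.307, 0.785, 0.813, 1.36 and 0.810 CPM in the 5 KO mice given PBS. These are 13 to 21 counts in wildtype and 5 to 26 counts in KO libraries, so the PBS level is known only coarsely. After LPS it stood at 176, 123, 169.6, 371 and 506 CPM in the 5 wildtype mice and 138, 164, 264, 189 and 210.3 CPM in the 5 KO mice. Every LPS mouse lay far above every PBS mouse, wildtype mice 4 and 5 were above all KO mice, and the other 3 wildtype mice lay among or below them. The log2FC of *Ccl5* was 7.90 ± 0.50 in wildtype mice (SE, adjusted p = 1.45e-09) and 7.86 ± 0.45 in KO mice (adjusted p = 2.81e-10), the 9th highest of the 18739 tested genes in wildtype and the 11th highest in KO mice. By mean CPM it went from rank 15420 to rank 689 among tested genes in wildtype mice, and from 16151 to 1153 in KO mice.

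The Ccr1 ligands *Ccl9* and *Ccl6* are neighbours and went opposite ways. *Ccl9* stood at 151, 96.3, 123 and 95.7 CPM in the 4 wildtype mice given PBS and at 89.9, 159, 93.1, 89.0 and 78.0 CPM in the 5 KO mice given PBS. After LPS it stood at 525, 453, 634, 1046 and 1073 CPM in the 5 wildtype mice and 702, 862, 959, 689 and 1184 CPM in the 5 KO mice. Every LPS mouse lay above every PBS mouse, and KO mouse 2 was well above the other KO mice after PBS. The log2FC of *Ccl9* was 2.68 ± 0.29 in wildtype mice (SE, adjusted p = 6e-07) and 3.11 ± 0.27 in KO mice (adjusted p = 3.1e-08). *Ccl6* stood at 115, 73.9, 97.2 and 63.9 CPM in the 4 wildtype mice given PBS and at 77.8, 119, 78.4, 62.5 and 69.8 CPM in the 5 KO mice given PBS. After LPS it stood at 59.6, 52.7, 52.8, 46.1 and 33.4 CPM in the 5 wildtype mice and 47.6, 66.0, 57.6, 39.5 and 56.2 CPM in the 5 KO mice. Wildtype LPS and PBS mice did not overlap, although the highest LPS value was close to the lowest PBS value, and the KO groups overlapped. The log2FC of *Ccl6* was -0.84 ± 0.21 in wildtype mice (SE, adjusted p = 0.00301) and -0.61 ± 0.20 in KO mice (adjusted p = 0.0162), the smallest change of the 10 genes. The call in KO mice was lost without KO LPS mouse 4 (log2FC -0.51, adjusted p = 0.0508), without KO PBS mouse 2 (log2FC -0.44, adjusted p = 0.0652) and without the 4 libraries rich in oligodendrocyte markers (log2FC -0.58, adjusted p = 0.0623). The count ratio of *Ccl9* to *Ccl6* within a library went from 1.27 to 1.5 to 8.60 to 32.1 in wildtype and from 1.12 to 1.42 to 13.1 to 21.1 in KO mice, with no overlap between treatments.

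*Ccl22*, encoding a chemokine of dendritic cells and macrophages that attracts Ccr4-bearing T cells, and *Ccl24*, the eotaxin, were the members outside chromosome 11 and also went opposite ways. *Ccl22* stood at 0.678, 1.09, 1.38 and 1.24 CPM in the 4 wildtype mice given PBS and at 1.04, 0.785, 2.18, 1.15 and 1.19 CPM in the 5 KO mice given PBS. The PBS values correspond to 13 to 21 counts in wildtype and 17 to 43 counts in KO libraries. After LPS *Ccl22* stood at 54.0, 33.7, 44.4, 28.7 and 98.6 CPM in the 5 wildtype mice and 19.7, 33.1, 30.1, 26.3 and 31.0 CPM in the 5 KO mice. Every LPS mouse lay far above every PBS mouse, and wildtype mouse 5 was far above the rest. Its log2FC was 5.56 ± 0.40 in wildtype mice (SE, adjusted p = 6.37e-09) and 4.46 ± 0.35 in KO mice (adjusted p = 7.46e-09). *Ccl24* stood at 7.92, 5.82, 6.96 and 7.82 CPM in the 4 wildtype mice given PBS and at 7.92, 7.99, 12.8, 6.65 and 5.67 CPM in the 5 KO mice given PBS. After LPS it stood at 2.62, 1.05, 1.14, 2.47 and 1.28 CPM in the 5 wildtype mice and 1.18, 1.26, 4.01, 2.52 and 2.31 CPM in the 5 KO mice, or 15 to 44 and 21 to 67 counts. All LPS mice were below all PBS mice, although KO mouse 3 came close with the highest value of both LPS groups. The log2FC of *Ccl24* was -2.05 ± 0.36 in wildtype mice (SE, adjusted p = 0.00014) and -1.86 ± 0.34 in KO mice (adjusted p = 0.000175), a level 4.13-fold and 3.64-fold lower after LPS. Microglial markers and markers of border-associated macrophages were also lower after LPS, as given above, and their part in the falls of *Ccl6* and *Ccl24* was not tested.

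**Figure D2:**
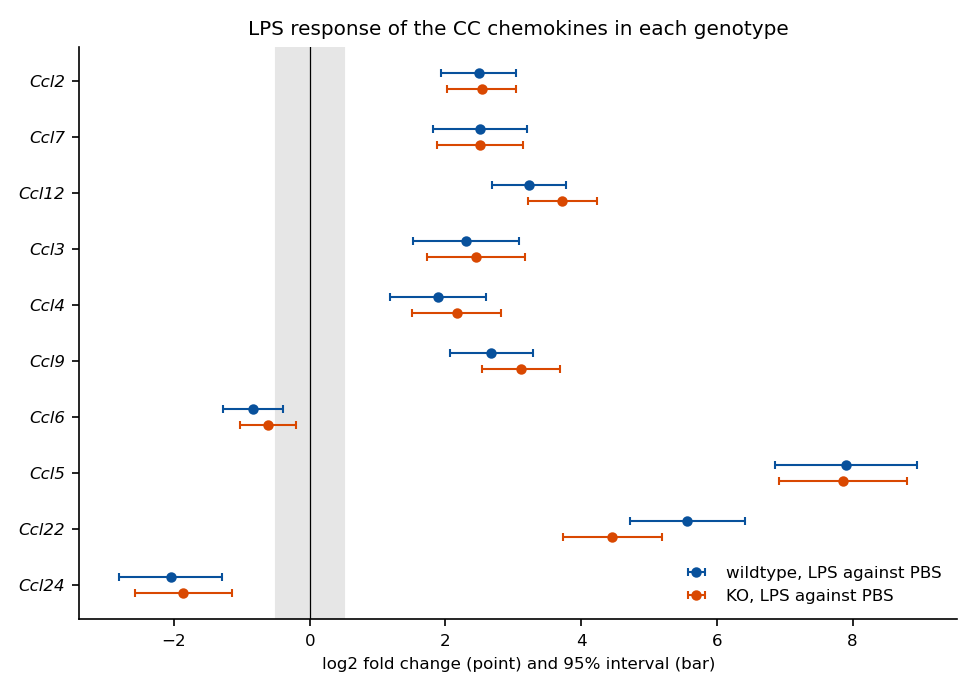
Log2FC of LPS against PBS (x axis) for each CC chemokine (y axis) in wildtype (blue) and KO mice (orange), with 95% intervals as bars and the range below the fold-change threshold in grey. *Ccl5* and *Ccl22* lie furthest to the right, *Ccl6* and *Ccl24* lie left of 0, and the intervals of the genotypes overlap for every gene.

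Levels were compared between genes as CPM per kb of merged exon length, mean ± SD over mice, as a description. In wildtype mice after PBS, *Ccl4* (279 ± 57.7) and *Ccl3* (227 ± 24.6) stood highest and overlapped each other. *Ccl6* (48.2 ± 12.7), *Ccl9* (37.5 ± 8.49) and *Ccl12* (36.9 ± 3.65) followed as an overlapping run. *Ccl2* (14.6 ± 1.96) and *Ccl7* (12 ± 2.71) overlapped below them, and *Ccl24* (5.02 ± 0.687), *Ccl5* (1.10 ± 0.293) and *Ccl22* (0.449 ± 0.124) were each separate. KO mice after PBS held the same order of blocks, with *Ccl12* before *Ccl9* and with *Ccl5* and *Ccl22* overlapping. With the canonical transcript the order after PBS was the same, but *Ccl2* and *Ccl7* no longer overlapped in wildtype mice, and in KO mice *Ccl6* no longer overlapped *Ccl12* while *Ccl9* overlapped *Ccl2*. After LPS in wildtype mice, *Ccl3* (1123 ± 458) and *Ccl4* (1030.1 ± 413) stayed highest, and *Ccl12* (347 ± 100.4), *Ccl5* (262 ± 159) and *Ccl9* (239.7 ± 94.2) formed an overlapping run below them. That separation depended on the length used: with the shorter canonical transcript, *Ccl5* came before *Ccl12* in wildtype mice after LPS, at 503 ± 305 CPM per kb, and overlapped *Ccl4*. With merged exons, *Ccl2* (81.8 ± 14.7) overlapped *Ccl7* (68.6 ± 23.4), and *Ccl6* (26.9 ± 5.44) overlapped *Ccl22* (21.2 ± 11.4). *Ccl24* (1.21 ± 0.540) was lowest and separate. After LPS in KO mice, each of the 7 genes from *Ccl4* (1153 ± 446) through *Ccl3*, *Ccl12*, *Ccl9*, *Ccl5* and *Ccl2* to *Ccl7* (84.4 ± 35.0) overlapped the next (with the canonical transcript *Ccl5* came before *Ccl9*, and *Ccl9* and *Ccl2* no longer overlapped), and *Ccl6* (29.3 ± 5.57), *Ccl22* (11.5 ± 2.15) and *Ccl24* (1.59 ± 0.810) were each separate.

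Together the 10 genes took 0.0582 to 0.0759% of all counts in wildtype mice after PBS and 0.0495 to 0.0727% in KO mice after PBS. After LPS they took 0.180 to 0.427% in wildtype mice (median 0.257%) and 0.190 to 0.407% in KO mice (median 0.311%). The PBS and LPS ranges lay apart, and those of the genotypes overlapped within each treatment. *Ccl3*, *Ccl4* and *Ccl9* made up 75.7 to 76.5% of the summed counts in wildtype and 67.6 to 81.2% in KO mice after PBS, and 70.7 to 76.6% and 70.5 to 80.6% after LPS. By mean CPM, *Ccl3* went from rank 1082 to rank 107 of the tested genes in wildtype mice, *Ccl9* from rank 1854 to rank 126 and *Ccl4* from rank 972 to rank 139. KO mouse 1 and wildtype mouse 2, those with the highest oligodendrocyte marker sums of their LPS groups, had the lowest shares. The same held after PBS for KO mouse 1 (7265 CPM, share 0.0495%) and wildtype mouse 2 (9529 CPM, share 0.0582%). The part of the one in the other was not tested.

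**Figure D3:**
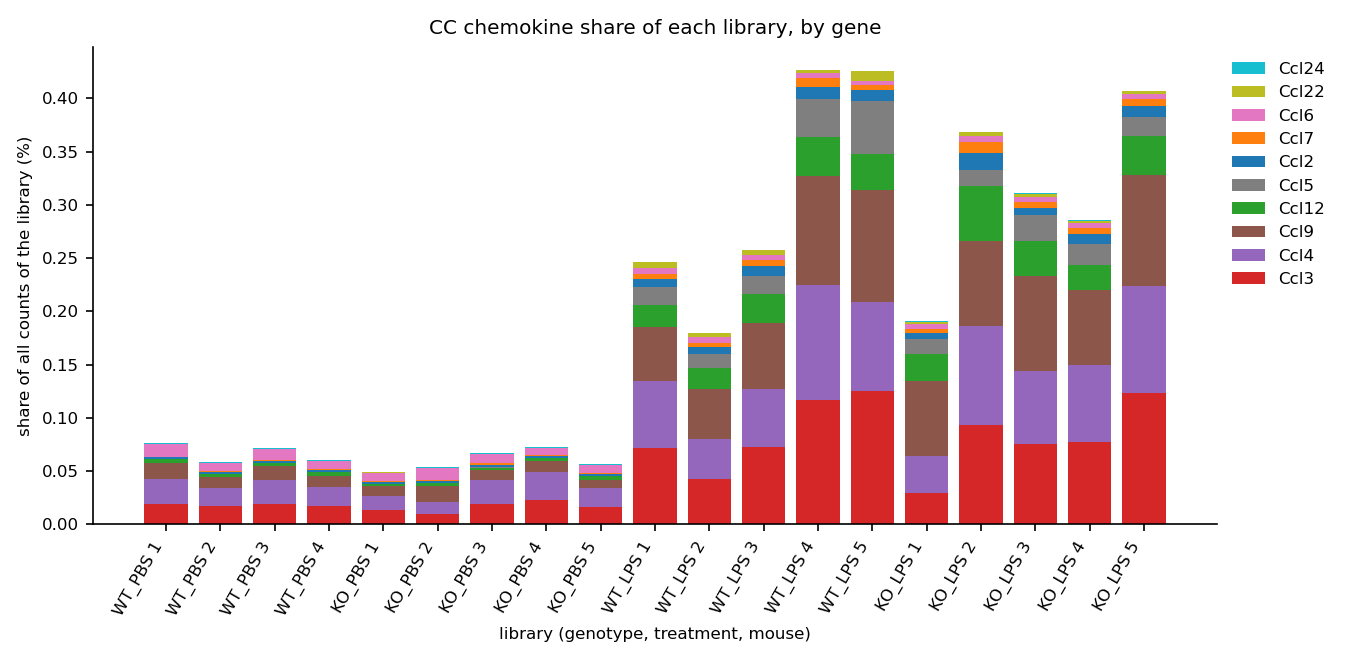
Share of all counts of a library (%, y axis) taken by each CC chemokine, stacked by gene, for each of the 19 mice (x axis). All LPS bars stand at 0.180% or higher and all PBS bars at 0.0759% or lower, and *Ccl3*, *Ccl4* and *Ccl9* make up most of every bar.

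To ask whether DJ-1 deficiency changed these levels, KO and wildtype mice were compared within each treatment. Calls used the study's thresholds of an unadjusted p under 0.05 and |log2FC| of at least 0.5. The study applied them with DESeq2, while the calls and shares here are from edgeR unless said otherwise. DESeq2 here called 209 genes higher and 262 lower after LPS, and 109 and 223 after PBS, of 34972 tested. After LPS, 1 of the 10 genes, *Ccl22*, was lower in KO mice and 0 were higher, against 0.763% of all tested genes called lower and 0.544% called higher. After PBS, 0 of the 10 were called by edgeR or by DESeq2, against 0.576% lower and 0.224% higher. No member had an adjusted p under 0.05 in either comparison (edgeR), where 2 genes after LPS (0.0107%) and 1 gene after PBS (0.00534%) of all 18739 did. The median log2FC of the 10 genes was 0.14 after LPS and -0.10 after PBS, against 0.016 and 0.0023 over all genes.

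*Ccl22* after LPS averaged 28.1 ± 5.25 CPM in KO mice (SD, n = 5) and 51.9 ± 27.9 CPM in wildtype mice (SD, n = 5), with the values per mouse given above. Of the 5 wildtype mice 4 lay above all 5 KO mice, and wildtype mouse 4 lay among them, so the groups overlapped, as they did for all 10 members (of all genes, 0.0587% did not overlap in the higher and 0.160% in the lower direction). The log2FC was -0.89 ± 0.29 (SE, 95% interval -1.5 to -0.27, edgeR unadjusted p = 0.00689, adjusted p = 1), so the difference did not hold after correction. Without wildtype mouse 5, whose library was also the shallowest of all, the log2FC was -0.52 (edgeR unadjusted p = 0.051) and the call was lost. It was kept when any other LPS mouse was left out. The LPS response of *Ccl22* in KO mice minus that in wildtype mice was -1.11 on the log2 scale (SE 0.48, edgeR interaction, unadjusted p = 0.0324, adjusted p = 1) and did not pass the correction either. Its unadjusted p rose to between 0.0529 and 0.0915 (edgeR interaction, log2 differences -1.01 to -0.74) when wildtype LPS mouse 5, KO LPS mouse 1, KO PBS mouse 3 or wildtype PBS mouse 1 was left out. After PBS the log2FC of *Ccl22* was 0.22 (95% interval -0.57 to 1.02). Of the 4 tested of 6 dendritic cell markers, 0 differed by genotype after LPS, and their summed CPM was 547 to 937 in KO and 352 to 1211 in wildtype mice, highest in wildtype mouse 5. *Fscn1*, which already stood at 395 to 531 CPM in wildtype mice after PBS, made up 1186 of the 1211 CPM in that mouse, while *Cd209a* was lowest there of its group (4.01 CPM), so the sum mainly follows 1 marker. Of 8 monocyte markers 0 were called, with all 8 log2FC below 0 and a median of -0.44. Of the 3 tested of 10 T and NK cell markers 1, *Ncr1*, was lower in KO mice (log2FC -1.63, edgeR unadjusted p = 0.0277), but not after correction. All 3 log2FC were below 0 (-1.63 to -1.21), and 0.763% of all tested genes were called lower. The sums over all 10 markers were low, at 0.794 to 4.64 CPM in KO and 2.73 to 9.69 CPM in wildtype mice. In these libraries 3 counts were 0.168 to 0.256 CPM. The part of these markers in the *Ccl22* difference was not tested.

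The other 9 members gave wide intervals after LPS, which bound the genotype difference as follows. Among the Ccr2 ligands, *Ccl12* had a log2FC of 0.39 (95% interval -0.07 to 0.84), *Ccl7* of 0.30 (-0.29 to 0.89) and *Ccl2* of 0.11 (-0.37 to 0.59). *Ccl12* passed the thresholds as higher in KO mice without KO mouse 4 (log2FC 0.52, unadjusted p = 0.0242) or wildtype mouse 4 (log2FC 0.52, unadjusted p = 0.0343). *Ccl3* had a log2FC of -0.03 (-0.71 to 0.65), *Ccl4* of 0.16 (-0.47 to 0.79) and *Ccl5* of -0.48 (-1.14 to 0.19). *Ccl5* passed the thresholds as lower without wildtype mouse 2 (log2FC -0.66, unadjusted p = 0.0428). *Ccl9* (0.24, -0.29 to 0.76), *Ccl6* (0.12, -0.29 to 0.54) and *Ccl24* (0.39, -0.34 to 1.12) had positive log2FC. After PBS the log2FC of the 10 genes ranged from -0.43 (*Ccl5*, 95% interval -1.47 to 0.61) to 0.30 (*Ccl7*, -0.35 to 0.95), and the lowest unadjusted p was 0.346.

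The difference between the LPS responses of KO and wildtype mice was tested as the interaction. None of the 10 genes, and none of the 18739, had an adjusted p under 0.05 in edgeR, while 180 genes (0.961%) had an unadjusted p under 0.05, *Ccl22* being the only member among them. DESeq2 also called 0 genes at an adjusted p under 0.05. Interaction log2FC ranged from -1.11 for *Ccl22* to 0.49 for *Ccl12* (95% interval -0.18 to 1.16).

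**Figure D4:**
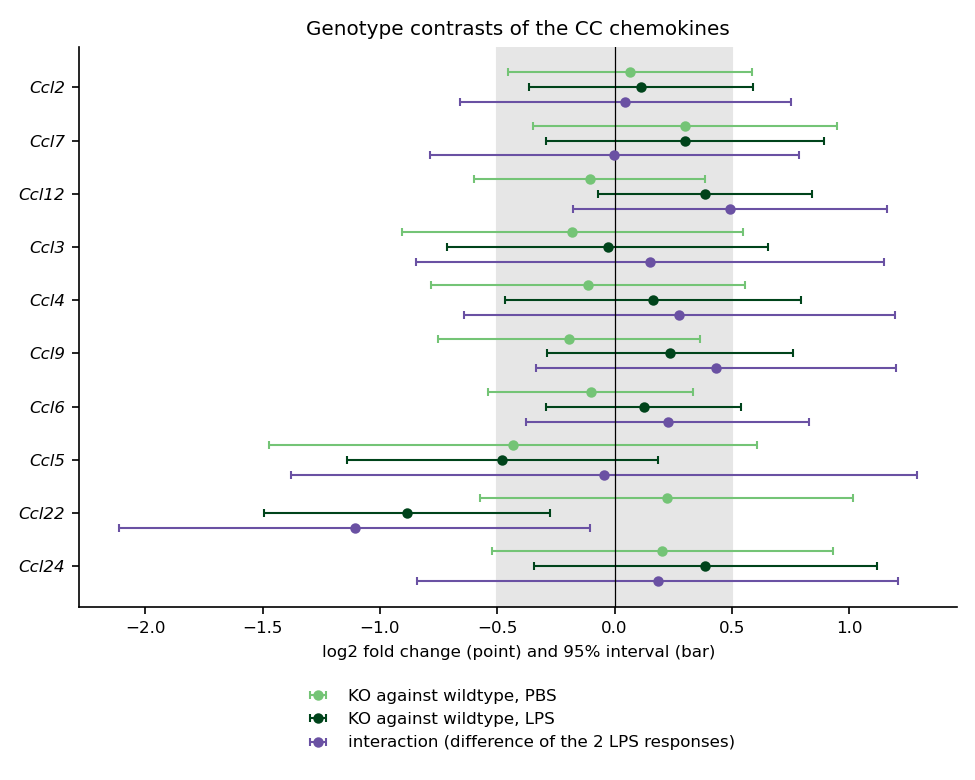
Log2FC (x axis) of KO against wildtype mice after PBS (light green) and after LPS (dark green), and of the interaction (purple), for each CC chemokine (y axis), with 95% intervals as bars. With all libraries the interval of *Ccl22* excludes 0 after LPS and in the interaction, and the intervals of the other 9 genes include 0 in all 3 contrasts.

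CC chemokine receptors were followed in the same libraries, as 14 listed genes of which 10 passed the filter. In both genotypes 5 of the 10 rose and 3 fell after LPS, where 17.4% of all tested genes fell in wildtype and 19% in KO mice and 18.4% and 20.1% rose, and 0 were called between genotypes in either treatment by edgeR. DESeq2 called 1, *Ccr6*, higher in KO mice after LPS (log2FC 0.97, unadjusted p = 0.0284). Their median log2FC after LPS was 0.60 in wildtype and 0.41 in KO mice, where all tested genes had medians of -0.063 and -0.0100. *Ccr7*, the receptor that guides dendritic cells to lymph nodes, rose most, from 0.424 to 0.683 and 0.123 to 1.03 CPM after PBS (7 to 11 and 2 to 19 counts) to 21.2, 15.3, 40.1, 85.9 and 199 CPM in wildtype and 21.9, 38.6, 56.9, 46.0 and 152 CPM in KO mice after LPS. Its log2FC was 7.09 ± 0.92 in wildtype mice (SE, adjusted p = 4.87e-06) and 7.07 ± 0.83 in KO mice (adjusted p = 1.19e-06), and mouse 5 of each genotype was the highest. The same mice had the highest *Fscn1* (1186 and 904 CPM) and the lowest *Cd209a* (4.01 and 6.79 CPM) of their LPS groups, so these dendritic cell markers went opposite ways there. *Ackr1*, an atypical receptor that binds chemokines without signalling, had 5 to 18 counts in wildtype and 3 to 17 in KO mice after PBS. It rose by 5.69 ± 0.69 and 5.18 ± 0.61 on the log2 scale, a size left uncertain by these counts. It was lowest of the LPS groups in wildtype mouse 1 (9.54 CPM, where the others stood at 30.8 to 50.3) and KO mouse 5 (3.46 CPM, where the others stood at 18.4 to 27.9). In their groups these mice also had the lowest summed CPM of 5 endothelial (126 and 59.5) and 5 astrocyte markers (469.8 and 159) and the lowest *Ccl11* and *Ccl20*, and the part of these cells in the levels was not tested. The rise of *Ackr1* was called with any single library left out. *Ccrl2*, an atypical receptor of chemerin, rose by 1.59 ± 0.31 and 1.92 ± 0.29, and *Ccr1*, the receptor of Ccl3, Ccl5, Ccl6 and Ccl9, by 1.68 ± 0.27 and 1.67 ± 0.24.

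*Ccr2*, the receptor of Ccl2, Ccl7 and Ccl12 and also one of the monocyte markers, stood at 17.3, 15.9, 23.8 and 16.5 CPM in wildtype mice after PBS and at 37.8, 30.8, 33.9, 22.8 and 33.9 CPM after LPS. KO mice stood at 13.7, 18.0, 15.9, 15.3 and 15.2 CPM and 16.5, 23.8, 41.3, 31.5 and 18.3 CPM. The treatments overlapped in both genotypes, and the log2FC was 0.79 ± 0.23 in wildtype mice (SE, adjusted p = 0.00812) and 0.75 ± 0.21 in KO mice (adjusted p = 0.00676).

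The 3 receptors that fell were low. *Ccr3*, the eotaxin receptor, had 9 to 31 counts in wildtype and 5 to 24 in KO mice after LPS and a log2FC of -1.27 ± 0.39 in wildtype mice (SE, adjusted p = 0.0123) and -1.83 ± 0.38 in KO mice (adjusted p = 0.000563). *Ccr6*, the receptor of Ccl20, had 4 to 21 and 7 to 36 counts after LPS and a log2FC of -1.89 ± 0.47 in wildtype mice (SE, adjusted p = 0.00284) and -1.20 ± 0.42 in KO mice (adjusted p = 0.0257), and its call in KO mice was lost without KO LPS mouse 1, 2 or 4 or KO PBS mouse 4 or 5 (adjusted p = 0.0507 to 0.0642) and without the 4 libraries rich in oligodendrocyte markers (log2FC -0.99, adjusted p = 0.0607). *Ccr1l1*, a relative of *Ccr1*, was called lower in both genotypes (adjusted p = 0.00199 and 0.000806), from 13 to 52 and 25 to 59 counts after PBS to 5, 10, 12, 0 and 1 counts in wildtype and 4, 7, 4, 8 and 6 in KO mice after LPS, too few to give the size of the fall. *Ccr9* and *Ackr4* were not called, with 95% intervals in wildtype mice of -0.61 to 1.43 and -2.93 to 0.54. *Ccr4*, the receptor of Ccl22, had 0 counts in all 19 libraries, and *Ccr8*, *Ccr10* and *Ackr2* had at most 2, 6 and 7 counts in any library.

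**Figure D5:**
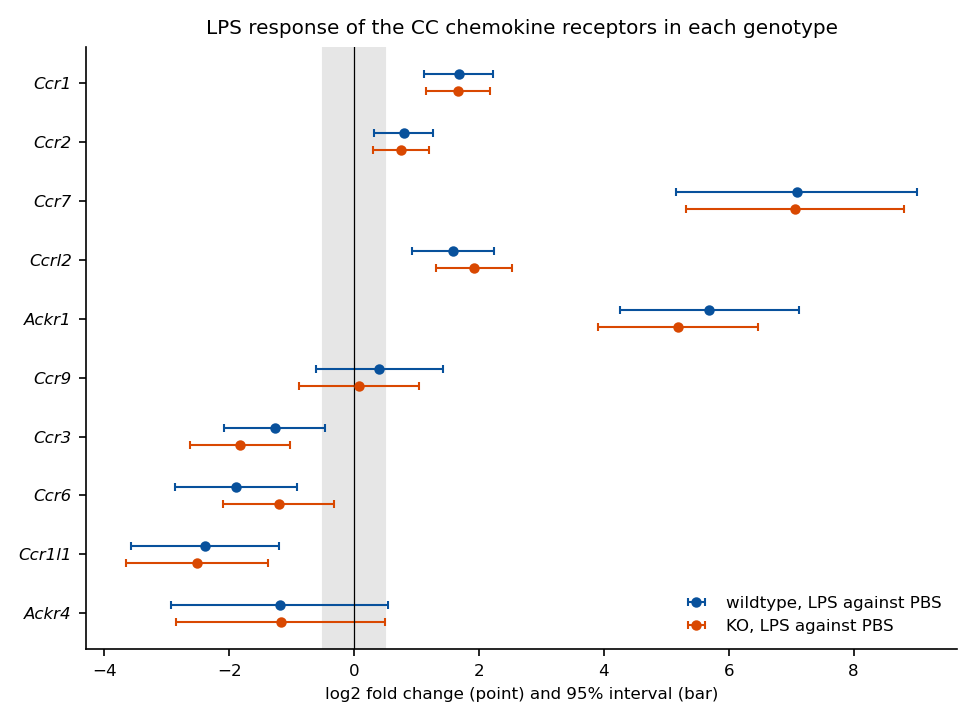
Log2FC of LPS against PBS (x axis) for the 10 CC chemokine receptors plotted (y axis) in wildtype (blue) and KO mice (orange), with 95% intervals as bars and the range below the fold-change threshold in grey. *Ccr7* and *Ackr1* lie furthest to the right, and *Ccr3*, *Ccr6* and *Ccr1l1* lie left of 0 in both genotypes.

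Of 14 further CC ligand genes, 6 passed the filter, and 3 of these, *Ccl11*, *Ccl17* and *Ccl20*, rose after LPS in both genotypes, where 18.4% of all tested genes rose in wildtype and 20.1% in KO mice. *Ccl17*, the other Ccr4 ligand, had 4, 3, 2 and 11 counts in wildtype and 1, 1, 9, 5 and 6 in KO mice after PBS, near the limit of 3 counts, so the size of its rise is uncertain. It stood at 6.44, 4.34, 4.22, 3.71 and 5.63 CPM in wildtype and 2.31, 5.09, 2.51, 2.57 and 2.09 CPM in KO mice after LPS. Between genotypes after LPS its log2FC was -0.74 (95% interval -1.58 to 0.11, edgeR unadjusted p = 0.083), without a call. *Ccl11*, an eotaxin gene beside *Ccl12*, had 0, 0, 3 and 1 counts in wildtype and 2, 0, 0, 0 and 0 in KO mice after PBS, and 7, 37, 33, 56 and 19 and 39, 21, 45, 38 and 4 counts after LPS. *Ccl20*, the Ccr6 ligand gene, had 0, 0, 0 and 0 and 0, 2, 0, 0 and 0 counts after PBS, and 15, 86, 53, 64 and 77 and 52, 95, 10, 142 and 2 after LPS. Counts this low before LPS give no fold change. *Ccl8* was not called, with a log2FC of 0.16 (95% interval -0.76 to 1.07) in wildtype and -0.52 (-1.39 to 0.34) in KO mice, and neither were *Ccl25* and *Ccl27a*. *Ccl27a* and the *Ccl21* genes belong to groups of near-identical copies, so their counts are uncertain. *Ccl21a*, *Ccl21b*, *Ccl21d* and *Ccl27b* had 0 counts throughout, and *Ccl1*, *Ccl19*, *Ccl26* and *Ccl28* were under the filter.

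Of 27 genes from the LPS receptor to NF-kappaB, all tested, 14 rose and 2 fell in wildtype mice, and 16 rose and 2 fell in KO mice, with a median log2FC of 0.62 and 0.87. Of all tested genes, 18.4% rose and 17.4% fell in wildtype and 20.1% rose and 19% fell in KO mice. The 4 largest changes in wildtype mice were those of *Tnfaip3* (3.73 ± 0.41), an inhibitor of NF-kappaB signalling, *Irak3* (3.40 ± 0.34), an inhibitory Irak kinase, *Cd14* (3.06 ± 0.26), the LPS co-receptor, and *Nfkb2* (2.79 ± 0.26), an NF-kappaB subunit. The 2 that fell were the receptor genes *Tlr4* (-1.06 ± 0.22 in wildtype, -1.09 ± 0.21 in KO mice) and *Ly96* (-1.36 ± 0.20 and -1.18 ± 0.19). None of the 27 was called between genotypes in either treatment.

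For each CC chemokine, the protein-coding genes with the most similar pattern were found by the root mean square difference of their log2 CPM, each gene centred on its own mean, over the 19 libraries. All genes share the libraries and their treatments, so the measure is a description of likeness only. *Ccl3* and *Ccl4* were the closest pair among the members (0.234), followed by *Ccl2* and *Ccl7* (0.282) and *Ccl12* and *Ccl9* (0.404). Over all genes, *Ccl2* lay closest to *Nfkbia* (0.247), *Ccl7* to *Ccl2*, *Ccl3* to *Ccl4* and then *Nfkbiz* (0.247), and *Ccl4* to *Ccrl2* (0.227). *Ccl12* lay closest to *Socs3* (0.273), *Ccl9* to *Cd14* (0.193) and *Ccl6* to *Evi2a* (0.115). *Ccl5* and *Ccl22*, the largest rises, had no gene as close: the nearest were *Il1rn* (0.552) for *Ccl5* and *Zbp1* (0.519) for *Ccl22*. The measure is not scaled to the size of a change. Distances of genes with larger changes or lower counts therefore cannot be set against those of the rest. *Ccl24* lay closest to *Pyroxd2* (0.403).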

How the data were processed

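The deposited values are raw counts per Ensembl gene in 19 libraries, 1 for each mouse as the labels name them, with no normalization by the authors. Libraries were stranded total RNA without ribosomal RNA, and 75-bp read pairs were trimmed (Cutadapt), mapped and counted by the authors with STAR 2.7.9a on GRCm39 with Ensembl release 108.

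Here edgeR 4.0.16 (R 4.3.3) was run on the counts after filterByExpr (at least 10 counts and 15 in total) and TMM scaling, as 1 quasi-likelihood model of 4 groups, with Benjamini-Hochberg adjustment over 18739 genes. CPM are TMM-scaled. The SE is the log2FC over the square root of F, and 95% intervals use the t quantile of the fit. GENCODE mouse release 39 (GRCm39) gave names for 56236 of 56980 genes, and positions. The scripts were tested on simulated data.

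Members, gene lists and tests were chosen with earlier results of these data known. All members were named, other ligands and receptors where they passed the filter, and of the pathway the 4 largest changes. 1 listed gene is not reported here. Within each group, no pair of libraries agreed within sampling noise. P-values measure the spread between these libraries. Alternatives were DESeq2 1.42.0, its size factors in edgeR, other filters and thresholds, the compared groups alone, a replicate block and each library left out. Leaving out the 4 libraries with the most oligodendrocyte marker counts, and the canonical transcript length for levels per kb, were added after seeing the data.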

Additional observations from a re-analysis of the deposited data

Results flagged for a closer look

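Each member was checked in each group for a mouse whose value stood apart, by the gap to its nearest neighbour over the range of the group. Of 40 such checks 2 passed the critical value, about as many as chance gives, since it flags about 1 group in 20. *Ccl5* in wildtype mouse 1 after PBS was low, at 0.678 CPM (13 counts), where the other 3 mice of the group stood at 1.24 to 1.31 CPM. *Ccl9* in KO mouse 2 after PBS was high, at 159 CPM (3437 counts), where the next KO mouse stood at 93.1 CPM. The same mouse had the highest *Ccl6* of its group, at 119 CPM.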

How the results depend on the processing

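The rises of the 8 members after LPS and the fall of *Ccl24* were called under every alternative that tested them, in both genotypes. *Ccl5* could not be tested at 10 counts in every library. The call of *Ccl6* in KO mice was the exception among members: with it lost, 1 member fell in KO mice without the 4 libraries rich in oligodendrocyte markers, and at a |log2FC| of at least 1 only *Ccl24* fell, 1 in each genotype. With single libraries left out, 1 to 2 members fell in KO mice.

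After LPS, an adjusted p left 0 members lower in KO mice, and leaving out single libraries gave 0 to 1 member higher (*Ccl12*), 0 to 2 lower (*Ccl22*, *Ccl5*), 0 to 1 further ligand lower (*Ccl17*), 0 to 1 receptor higher (*Ccr6*) and 0 to 1 lower (*Ccr3* or *Ackr1*). 1 receptor, *Ccr6*, was higher with DESeq2's size factors, with DESeq2, with no filter and without the 4 libraries, and 1 further ligand, *Ccl17*, was lower with DESeq2 and with the compared groups alone. At 10 counts in every library, 0 further ligands rose in either genotype, 3 receptors rose and 0 fell in each genotype, since low genes were no longer tested. In KO mice 1 further ligand, *Ccl26*, fell with no filter. With the compared groups alone 1, *Ccl17*, rose in KO mice. *Ccl11* and *Ccl20*, at 4 and 2 counts in KO LPS mouse 5, were under the filter of that fit and not tested. Where not said otherwise, the cause was not tested.

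Uncalled differences near 0 changed sign. The interaction of *Ccl7* was 0.014 with DESeq2's size factors, 0.013 with DESeq2 and 0.031 without the 4 libraries, against -0.0015. Without those libraries *Ccl3* after LPS was 0.013 and *Ccl2* after PBS -0.048 between genotypes. Over single libraries left out, the interaction ran from -0.23 to 0.18 for *Ccl2*, -0.13 to 0.40 for *Ccl24*, -0.10 to 0.36 for *Ccl3*, -0.23 to 0.31 for *Ccl5* and -0.26 to 0.26 for *Ccl7*. Between genotypes after LPS it ran from -0.17 to 0.25 for *Ccl2*, -0.28 to 0.19 for *Ccl3* and -0.0065 to 0.38 for *Ccl4*, and after PBS from -0.051 to 0.15 for *Ccl2*, -0.059 to 0.36 for *Ccl22*, -0.0081 to 0.32 for *Ccl24* and -0.28 to 0.059 for *Ccl6*. LPS effects ran from -0.19 to 0.020 for *Ccl25* and -0.16 to 0.35 for *Ccr9* in KO mice, and from -0.16 to 0.054 for *Ccl25* and -0.10 to 0.38 for *Ccl8* in wildtype mice.

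In the fit with a replicate block, *Ccl22* after LPS had a log2FC of -0.81 (edgeR unadjusted p = 0.00878) and an interaction of -0.89 (edgeR unadjusted p = 0.0631), *Ccl5* had an interaction of 0.27, and no member's call changed. Deviations of same-numbered LPS and PBS mice correlated at over 0.1 in 3 of 4 wildtype pairs (-0.042 to 0.58) and 4 of 5 KO pairs (0.027 to 0.54), and the 4 libraries rich in oligodendrocyte markers were 2 such pairs. Not every pair did, and the labels give the number no meaning, so the mice were not treated as paired. The all-gene calls between genotypes after LPS were 78 higher and 154 lower with the block, against 102 and 143 without it and 209 and 262 with DESeq2, which tested more genes. After PBS, 45 genes were higher with the block, 42 without it and 109 with DESeq2, and 189 were lower with the block and 223 with DESeq2, against 0.576% of genes without it. Counting error limits the PBS levels of *Ccl5* and *Ccl22*, at 5 to 43 counts. The canonical transcript length changed 2 ranks of the level per kb in each LPS group and 0 in the PBS groups.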
